A study of Mus musculus with 68 samples.

Results

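The brown fat thermogenic genes described here are 8 genes of heat-producing adipocytes: Ucp1, Cidea, Elovl3, Cox8b, Cox7a1, Ppargc1a, Prdm16 and Dio2. They were taken as all probe sets annotated to these genes, 17 in number, and each gene was read from its probe set with the highest mean. The array annotation names 18194 genes in this way. Gene expression had been measured on Affymetrix arrays in mammary tumours that arose spontaneously in mice carrying MMTV-PyMT, a transgene whose promoter drives polyoma middle T mainly in mammary epithelium. The animals came from an ((NZB x PyMT) x FVB) backcross, and the labels place all 68 arrays, of 66 animal numbers, in 1 group without untreated or tumour-free controls. The labels give separate animal numbers but no age, no fat depot and no note on the normal tissue left on a tumour piece. An R closes the titles of 10 arrays, and no source used here explains it. The genes are described over the 56 arrays, of 56 animals, whose 18S ribosomal RNA control probe sets averaged below 8.

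Brown and beige adipocytes burn fat to make heat. Cold acts through noradrenaline and cyclic AMP, and the coactivator encoded by Ppargc1a and the transcription factor encoded by Prdm16 act on the thermogenic programme, while the deiodinase encoded by Dio2 makes active thyroid hormone inside the cell. Ucp1 lets protons leak across the inner mitochondrial membrane, and the mouse mammary gland lies in subcutaneous fat that can hold such cells. Several of these genes are also used elsewhere: Cidea in the secretory mammary epithelium, Elovl3 in skin glands, and Cox8b and Cox7a1 in heart and oxidative muscle.

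The values are RMA values read as log2, so 1 unit is a doubling of signal. In the 56 arrays the 18S control probe sets averaged 5.03 to 6.84, against 8.97 to 10.2 in the 12 arrays left aside. By probe sets that split the arrays, the 56 arrays fell into array sets of 39, 9 and 8 arrays, called sets 1, 3 and 4. The labels do not name these sets or say what they stand for, and set 3 holds 8 of the R titles. None of 24 correlations of the 8 genes with the 18S level or with the 3' minus 5' differences of Gapdh and Actb passed a permutation test or reached an unadjusted p under 0.05, and r lay between -0.19 and 0.20. As a background for detection, 44 olfactory receptor probe sets had a median of 3.44, and 95% of their values lay below 5.03. Probe sets differ in response, so values are compared between arrays and not between genes.

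Ucp1, the defining gene of the brown adipocyte, ranged from background-like values in some tumours to high values in others. Its lowest value was 4.15, its median 5.67 and its highest 10.96 over the 56 arrays, a 112-fold range, with a mean of 6.20 ± 1.68 (SD, n = 56). It exceeded the olfactory receptor limit of 5.03 in 32 arrays, where it ran from 5.13 to 10.96, and in the other 24 arrays it lay between 4.15 and 4.93. With a limit from 9 Y-linked probe sets, 3.18, it passed in all 56 arrays, so the number of tumours with detected Ucp1 depends on the background chosen. Animal 3864 had the highest value, followed by animal 4958 with 9.71 and animal 3290 with 9.13. The SD of Ucp1 exceeded that of 99.7% of the 12562 genes tested, whose median SD was 0.23. Array sets accounted for 0.277% of its variance, against a median of 16.7% over the genes tested.

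Cidea, which encodes a lipid droplet protein, was above the limit in all 56 arrays. It ran from 5.51 through a median of 6.89 to 9.96, and its mean was 7.001 ± 1.12 (SD, n = 56). Its highest value belonged to animal 3864 as well. Elovl3, an enzyme that lengthens very long fatty acids, ran from 3.12 through 3.58 to 5.26, and it passed the limit of 5.03 only in animal 4958, against 54 arrays with the limit of 3.18. Elovl3 alone among the 8 genes failed the filter for testing, for which a gene's 95th percentile had to exceed 5.42, the median of all values.

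Cox8b and Cox7a1 encode the heart and muscle forms of cytochrome c oxidase subunits. Cox8b ran from 4.79 through a median of 7.15 to 10.80, with a mean of 7.36 ± 1.35 (SD, n = 56), and 55 arrays were above the limit. Cox7a1 ran from 5.44 through 6.78 to 9.23, with a mean of 6.87 ± 0.73 (SD, n = 56), and all arrays were above it. The SDs of Cox8b and Cox7a1 exceeded those of 99.3% and 96.5% of the genes tested. Their widely expressed relatives varied less. Cox8a had a mean of 10.30 ± 0.22 and Cox7a2 one of 12.21 ± 0.07 (SD, n = 56), and their correlations with Ucp1 were 0.09 and 0.11. Of these isoforms, which most cells carry, Cox7a2 had an SD below the median of the genes tested, 0.2274. That of Cox8a, 0.2245, was close to this median, and its mean was 10.32, 9.96 and 10.60 in sets 1, 3 and 4.

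The regulators and Dio2 had smaller SDs than Ucp1, Cidea, Cox8b and Cox7a1 on the probe sets used. Ppargc1a ran from 4.32 through a median of 4.99 to 7.44 with an SD of 0.49, larger than that of 90.6% of the genes tested, and 23 arrays were above the limit of 5.03 and 56 above that of 3.18. Its highest arrays were those of animal 3854, at 7.44, and animal 3853, at 6.27, and both had Ucp1 at background, at 4.64 and 4.70. The other 4 probe sets of Ppargc1a followed the one used with r between 0.60 and 0.92, and the most variable of them had an SD of 0.83, above the 0.73 of Cox7a1. Prdm16 stayed within 5.04 to 5.82 with an SD of 0.18, below the median SD of the genes tested. Its other 3 probe sets were dimmer, with means of 3.02 to 3.83, and followed the one used with r of 0.10 to 0.29, so the Prdm16 probe sets disagree. Dio2 ran from 4.95 through 5.88 to 7.03 with an SD of 0.48, larger than that of 90.2% of the genes tested, 53 arrays were above the limit, and its other 2 probe sets followed it with r of 0.35 and 0.62.

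**Figure D1:**
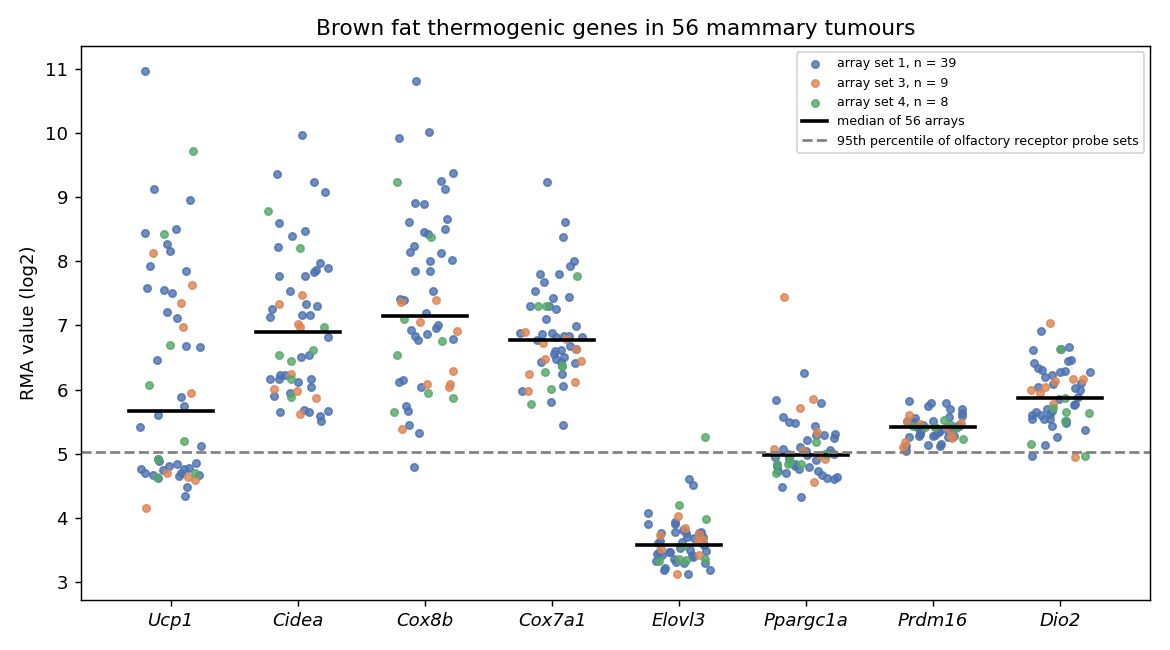
Log2 RMA value (vertical axis) of each of the 8 genes in the 56 arrays, 1 point per array coloured by array set, with points spread sideways only for visibility, a bar at each median and the olfactory receptor limit of 5.03 as a dashed line. Ucp1 spans 4.15 to 10.96 and falls below the line in 24 arrays, Elovl3 lies below it in all arrays but 1, and Prdm16 stays between 5.04 and 5.82.

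Promoters of Ucp1, of 2 genes that correlated with it, Cox8b and Cox7a1, and of Dio2, a known target of cyclic AMP, are shown here because they are stretches at which thermogenic regulators can be looked for. That of Cidea is not shown here. RefSeq (GRCm38.p6) gave a promoter, from 250 bases before to 50 after the gene start, for 6 of the 8 genes, and 4 are printed 5' to 3'. They are Ucp1 at chr8:83290098-83290397 on the plus strand, Cox8b at chr7:140900397-140900696 on the minus strand, Cox7a1 at chr7:30183921-30184220 on the plus strand and Dio2 at chr12:90738989-90739288 on the minus strand. Capitals mark motifs searched on both strands. These were AGGTCA, the core bound by many nuclear receptors, TGACG, the core of the cyclic AMP response element, TCAAGGTCA, the element of the estrogen-related receptors, and TATAAA, the TATA box.
Ucp1: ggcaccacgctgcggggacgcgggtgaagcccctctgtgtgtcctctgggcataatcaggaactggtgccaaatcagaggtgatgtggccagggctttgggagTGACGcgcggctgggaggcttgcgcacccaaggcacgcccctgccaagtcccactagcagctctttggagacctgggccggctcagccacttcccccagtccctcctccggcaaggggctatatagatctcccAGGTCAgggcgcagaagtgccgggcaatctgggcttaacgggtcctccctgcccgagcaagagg
Cox8b: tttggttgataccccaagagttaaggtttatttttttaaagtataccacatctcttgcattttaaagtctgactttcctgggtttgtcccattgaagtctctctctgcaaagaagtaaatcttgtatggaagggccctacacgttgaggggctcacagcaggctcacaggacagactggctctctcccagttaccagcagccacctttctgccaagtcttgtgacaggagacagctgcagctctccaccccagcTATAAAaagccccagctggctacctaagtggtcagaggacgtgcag
Cox7a1: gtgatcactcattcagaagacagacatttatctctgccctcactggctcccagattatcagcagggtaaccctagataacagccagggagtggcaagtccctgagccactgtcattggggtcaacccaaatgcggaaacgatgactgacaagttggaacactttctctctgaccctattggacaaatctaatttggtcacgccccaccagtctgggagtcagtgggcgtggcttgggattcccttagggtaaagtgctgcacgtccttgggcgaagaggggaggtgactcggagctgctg
Dio2: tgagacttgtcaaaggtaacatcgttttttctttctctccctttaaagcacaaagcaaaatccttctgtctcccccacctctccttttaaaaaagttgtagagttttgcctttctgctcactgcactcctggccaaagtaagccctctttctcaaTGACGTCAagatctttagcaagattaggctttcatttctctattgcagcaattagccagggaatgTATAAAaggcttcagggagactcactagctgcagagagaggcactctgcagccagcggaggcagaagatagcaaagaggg

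The Ucp1 promoter holds AGGTCA at -14 to -9 and TGACG at -147 to -143 from the gene start. Dio2 holds TGACG on both strands, overlapping as TGACGTCA from -95 to -88, and TATAAA at -30 to -25. In Cox8b the only match is TATAAA at 4 to 9, after the annotated start, and the Cox7a1 window holds none of the 4 motifs. Among 32851 promoters of the same length, 16.3% hold AGGTCA, 20.8% hold TGACG, 0.423% hold TCAAGGTCA, 13.6% hold TATAAA and 1.79% hold TGACGTCA. These matches describe letters in the sequence and not bound sites.

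Ucp1, Cidea, Cox8b and Cox7a1 rose and fell together across tumours. Ucp1 and Cidea had Pearson's r of 0.87 and Spearman's rho of 0.82 over 56 arrays, each with a permutation p of 1e-05, the smallest that 100000 draws can give, and an adjusted p of 4.67e-05 over 28 pairs. Within array sets 1, 3 and 4 the correlation was 0.89, 0.87 and 0.91, with an adjusted p over 28 pairs (permutation in set 1, exact permutation in the others) of 4.67e-05, 0.0837 and 0.0403, so that in set 3 it did not pass. In set 4 it was 0.21 without the 2 arrays farthest from the median. Cox8b followed Ucp1 with r of 0.81 and rho of 0.78, and Cox7a1 with r of 0.76 and rho of 0.72, at the same permutation p and adjusted p. Cox8b against Ucp1 gave r of 0.86, 0.59 and 0.97 in the 3 sets, and the value of 0.59 in set 3 did not pass (exact permutation p = 0.0992, n = 9). Cox7a1 against Ucp1 gave 0.80, 0.61 and 0.91, and that in set 3 did not pass either (exact permutation p = 0.0853, n = 9). Without the 2 arrays farthest from the median Ucp1 value, r with Ucp1 was 0.84 for Cidea, 0.77 for Cox8b and 0.70 for Cox7a1. Among the other genes, Cox8b and Cox7a1 correlated at 0.88, Cidea and Cox8b at 0.84, and Cidea and Cox7a1 at 0.79, all at the same permutation p. In sets 1, 3 and 4 these values were 0.86, 0.77 and 0.91 for the first pair, 0.84, 0.78 and 0.85 for the second, and 0.80, 0.64 and 0.72 for the third. Of these 9 values, the first pair passed the adjusted threshold in sets 1 and 4 and the other pairs in set 1 alone. Without 2 arrays of set 4, Cidea with Cox8b turned to -0.20 and Cidea with Cox7a1 to -0.13.

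Elovl3 followed Ucp1 even at its low level, with r of 0.54 (permutation p = 4e-05) and rho of 0.46 (permutation p = 0.00033), adjusted p = 0.00016 and 0.00115. Within sets 1, 3 and 4 its r was 0.45, 0.68 and 0.82, with adjusted permutation p (exact in sets 3 and 4) of 0.0152, 0.125 and 0.0698. Without the 2 farthest arrays of each set these became 0.23, 0.81 and -0.26, with the sign turned in set 4. Over the 56 arrays, r without the 2 arrays farthest from the median was 0.38 with an adjusted p of 0.0125. Dio2 correlated with Ucp1 at r of 0.39 and rho of 0.37 (permutation p = 0.00256 and 0.00516, adjusted p = 0.00717 and 0.0144), but r fell to 0.30 with an adjusted p of 0.0755 without those 2 arrays. Its values within sets 1, 3 and 4 were 0.34, 0.41 and 0.75. None of these passed, with adjusted permutation p (exact in sets 3 and 4) of 0.0874, 0.358 and 0.0792. Ppargc1a and Prdm16 correlated with Ucp1 at -0.04 and 0.08, and neither passed. On the other probe sets of Ppargc1a, r with Ucp1 lay between -0.10 and 0.02. On those of Prdm16 it was 0.05, -0.02 and 0.41, the last on the dimmest, with a mean of 3.02. The other probe sets of Dio2 gave 0.26 and 0.48. Over the 56 arrays and on the probe sets used, 12 of the 28 pairs passed, all of them positive. None of the 12 included Ppargc1a or Prdm16.

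The correlations were also read in the 32 arrays with Ucp1 above the limit of 5.03. There its r was 0.76 with Cidea, 0.65 with Cox8b, 0.71 with Cox7a1 and 0.70 with Elovl3, with adjusted permutation p of 2.33e-05, 0.000122, 2.33e-05 and 2.33e-05. The other 24 arrays span only 4.15 to 4.93 in Ucp1, the gene the division was made on, so their correlations are not compared with these. This division was chosen after the values were seen.

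**Figure D2:**
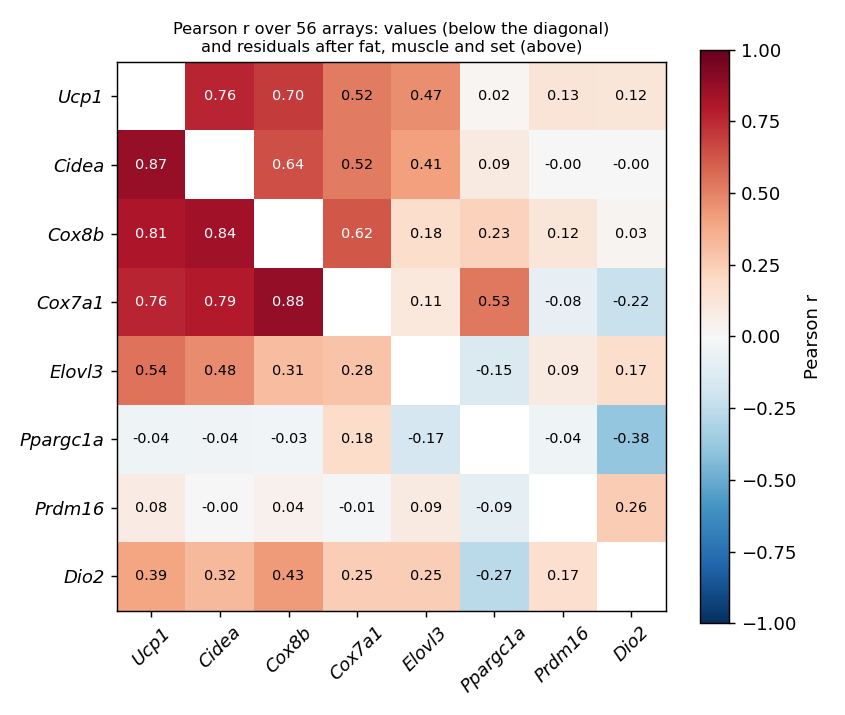
Pearson's r between the 8 genes over the 56 arrays, below the diagonal on the log2 values and above it on what is left after array set, fat score and muscle score, with the colour scale running from -1 to 1. Ucp1, Cidea, Cox8b and Cox7a1 form a block with r of 0.76 to 0.88 before and 0.52 to 0.76 after. Prdm16, on the probe set used, stands outside it.

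All of these tumours are bulk tissue, and fewer cells of a type and less RNA per cell cannot be told apart in them. To ask how far the genes followed fat in general, a fat score was formed as the mean z-score of 8 genes of a general fat list, among them Adipoq, Car3, Fabp4 and Cidec. Adipoq ran from 4.45 to 11.61 and Car3 from 7.28 to 13.59. A muscle score was formed from 14 genes of fast skeletal muscle. Both scores correlated with each other at 0.59 over the 56 arrays. With 2 genes of the fat list not named by a single-gene probe set (Plin1 and Cfd) and 2 too dim, the fat score rests on 8 of 12 listed genes. It also had r of 0.72 with a score of endothelium genes, 0.67 with fibroblast, 0.65 with macrophage and 0.64 with T cell genes. With milk and secretory epithelium it was 0.59, against 0.04 with luminal and basal epithelium and 0.02 with hair follicle and cornified skin.

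Cox8b followed the fat score with r of 0.87 and rho of 0.87, Cox7a1 with 0.70 and 0.70, Cidea with 0.68 and 0.68, and Ucp1 with 0.61 and 0.62, each with a permutation p of 1e-05 and an adjusted p of 2e-05 over 16 relations. Dio2 followed it with 0.43 and 0.41 (permutation p = 0.0009 and 0.0019, adjusted p = 0.0016 and 0.00304). Without the 2 arrays farthest from the median fat score, r was 0.86 for Cox8b, 0.68 for Cox7a1, 0.66 for Cidea, 0.60 for Ucp1 and 0.38 for Dio2, and all 5 still passed. With the muscle score r was 0.77 for Cox8b, 0.75 for Cox7a1, and 0.62 for both Ucp1 and Cidea, with rho of 0.82, 0.78, 0.65 and 0.64, again at a permutation p of 1e-05 and an adjusted p of 2e-05. Dio2 had r of 0.38 and rho of 0.46 with it (permutation p = 0.00332 and 0.00049, adjusted p = 0.00531 and 0.000871). Within sets 1, 3 and 4, Ucp1 correlated with the fat score at 0.68, 0.13 and 0.81, and the value in set 3 did not pass (exact permutation p = 0.756, n = 9). Cox8b correlated with it at 0.87, 0.76 and 0.91 in the same sets, Cidea at 0.68, 0.46 and 0.73, Cox7a1 at 0.69, 0.29 and 0.79, and Dio2 at 0.45, 0.69 and 0.38. After adjustment over 16 relations, all 5 genes passed in set 1, none passed in set 3, and only Cox8b passed in set 4. Without the 2 farthest arrays of set 4, r with the fat score was 0.73 for Cox8b, 0.45 for Cox7a1, 0.24 for Ucp1, -0.25 for Cidea and -0.56 for Dio2. With the muscle score the values in sets 1, 3 and 4 were 0.64, 0.51 and 0.82 for Ucp1, 0.62, 0.46 and 0.76 for Cidea, 0.76, 0.74 and 0.86 for Cox8b, and 0.74, 0.76 and 0.89 for Cox7a1. All 4 genes passed in set 1, none in set 3, and Cox8b and Cox7a1 in set 4. Dio2 with the muscle score had r of 0.30, 0.50 and 0.72 in these sets, and none of the 3 values passed. Their adjusted permutation p (exact in sets 3 and 4) was 0.0949, 0.29 and 0.0704. By rho, 0.42 in set 1, Dio2 did pass (adjusted permutation p = 0.0162). For Elovl3 the fat score gave r of 0.22, which did not pass, and the muscle score 0.29 with an adjusted p of 0.0437, which became 0.27 with an adjusted p of 0.0698 without the 2 arrays farthest from the median score.

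In single tumours Ucp1 departed from the fat score in both directions. Animal 3864 ranked first of 56 in the fat score, first in the muscle score and first in Ucp1, Cidea, Cox8b and Cox7a1. Animal 3295 ranked 6 in the fat score but had Ucp1 at 5.74. Animals 3004 and 4975 ranked 4 and 8 in the fat score, 50 and 53 in the muscle score, and had Ucp1 at 5.88 and 5.605. Animal 3039 was the reverse, ranking 47 in the fat score and 44 in the muscle score with Ucp1 at 8.12, the value of rank 10. In that tumour Cidea was 6.97 and Cox8b 6.29, against medians of 6.89 and 7.15 over the 56 arrays, and its Cox8b value was the median of array set 3. After array set, fat score and muscle score its residuals were 2.84 for Ucp1, 0.94 for Cidea and 0.48 for Cox8b, all above 0. The 5 animals were picked once their values had been seen.

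**Figure D3:**
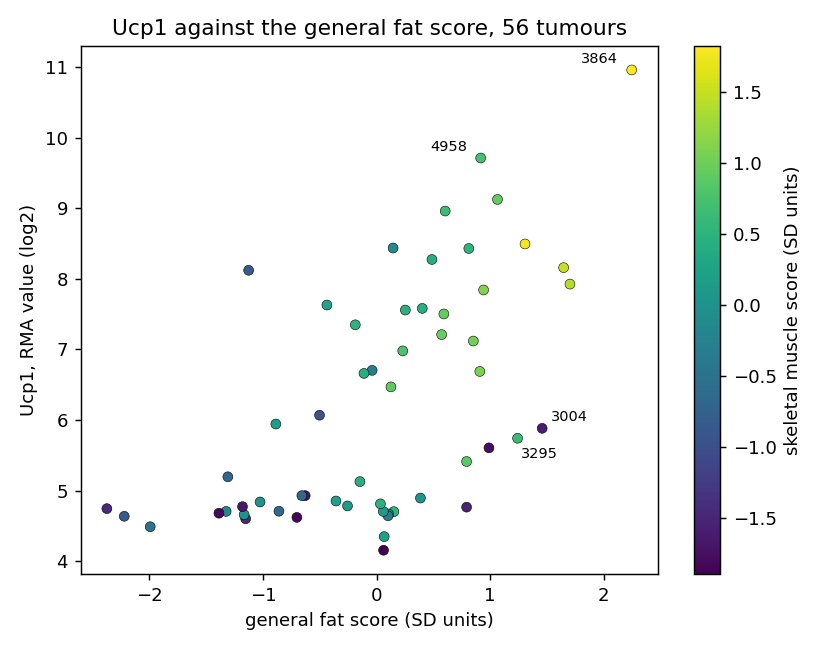
Log2 Ucp1 value (vertical axis) against the fat score, the standardised mean z-score of 8 fat genes (horizontal axis, SD units), 1 point per array over the 56 arrays coloured by muscle score in SD units, with r of 0.61. Animal 3864 stands at the upper right, while animals 3004 and 3295 have high fat scores with Ucp1 at 5.88 and 5.74.

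When both scores and array set entered 1 limma fit across 12562 genes, 4 of the 7 brown fat genes tested rose with the fat score. They were Cox8b, Ucp1, Cidea and Cox7a1. For comparison, 6.42% of 12554 genes rose with the fat score. The slope, in log2 units per SD of the fat score at a given muscle score, was 0.85 ± 0.088 for Cox8b (SE, limma adjusted p = 8.67e-11), 0.68 ± 0.20 for Ucp1 (adjusted p = 0.0258), 0.53 ± 0.13 for Cidea (adjusted p = 0.00504) and 0.28 ± 0.074 for Cox7a1 (adjusted p = 0.0104). Without the 2 arrays with the highest Ucp1, of animals 3864 and 4958, the Ucp1 slope was 0.54 and no longer passed (limma adjusted p = 0.0829), while Cidea, Cox8b and Cox7a1 still did. The slopes of Dio2 (0.19), Ppargc1a (0.04) and Prdm16 (-0.05) did not pass.

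On the muscle score, at a given fat score, 2 of the 7 brown fat genes tested rose, against 1.22% of 12548 genes. They were Cox8b, with a slope of 0.51 ± 0.086 (SE, limma adjusted p = 3.20e-05), and Cox7a1, with 0.38 ± 0.073 (adjusted p = 0.000414). Both are known from oxidative muscle as well as from brown fat. Ucp1 had a slope of 0.72 ± 0.20 that just missed the threshold (limma adjusted p = 0.0528) and passed in 3 of 9 alternative settings, over which its slope ran from 0.64 to 0.73. The slope of Cidea, 0.39 ± 0.13, did not pass (limma adjusted p = 0.158).

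Array set, fat score and muscle score together accounted for 86.2% of the variance of Cox8b and 66.7% of that of Cox7a1, but for 53.8% of that of Cidea and 51.1% of that of Ucp1. The median over the genes tested was 27.3%. After these terms Ucp1 kept an SD of 1.22 log2 units, larger than that left in 99.5% of the genes tested. The same terms accounted for 28.1% of the variance of Dio2, 11.9% of that of Ppargc1a and 7.27% of that of Prdm16.

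Cidea and Cox8b followed Ucp1 beyond the fat and muscle scores. With Ucp1 added to the fit, 11 genes of 12561 rose with it in limma, which is 0.0876%. Cidea and Cox8b were the 2 brown fat genes among the 11. Of the genes that form the scores, none passed. An unadjusted limma p under 0.05 was reached by 2 of 8 fat genes, Cidec (0.20) and Plin4 (-0.17). It was also reached by 2 of 14 muscle genes, Myot (0.17) and Myh4 (-0.21). Per SD of Ucp1 the slope of Cidea was 0.83 ± 0.098 (SE, limma adjusted p = 2.37e-07) and that of Cox8b 0.50 ± 0.071 (adjusted p = 2.00e-05). By partial correlation with Ucp1 given fat, muscle and array set, Cidea (0.76) ranked 1 and Cox8b (0.70) ranked 2 of 12561 genes. Cox7a1 ranked 12 with 0.52. Its slope of 0.31 ± 0.072 missed the threshold (limma adjusted p = 0.0586) and passed in 2 of 12 alternatives. The slopes of Dio2 (0.07), Prdm16 (0.03) and Ppargc1a (0.02) did not pass.

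Cidea and Cox8b passed in all 12 alternatives, with slopes of 0.74 to 0.93 and 0.44 to 0.53. The number of genes called was less steady, at 4 without the arrays of animals 3864 and 4958 and 2 in array set 1 alone, where Cidea and Cox8b were the 2. Elovl3, tested only when the filter was dropped, had a slope of 0.23 that did not pass (limma adjusted p = 0.266). Ucp1 raised the share of variance accounted for by 26.7 percentage points in Cidea, 8.94 in Cox7a1, 6.77 in Cox8b and 18.5 in Elovl3, against a median of 0.419 over the genes tested.

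**Figure D4:**
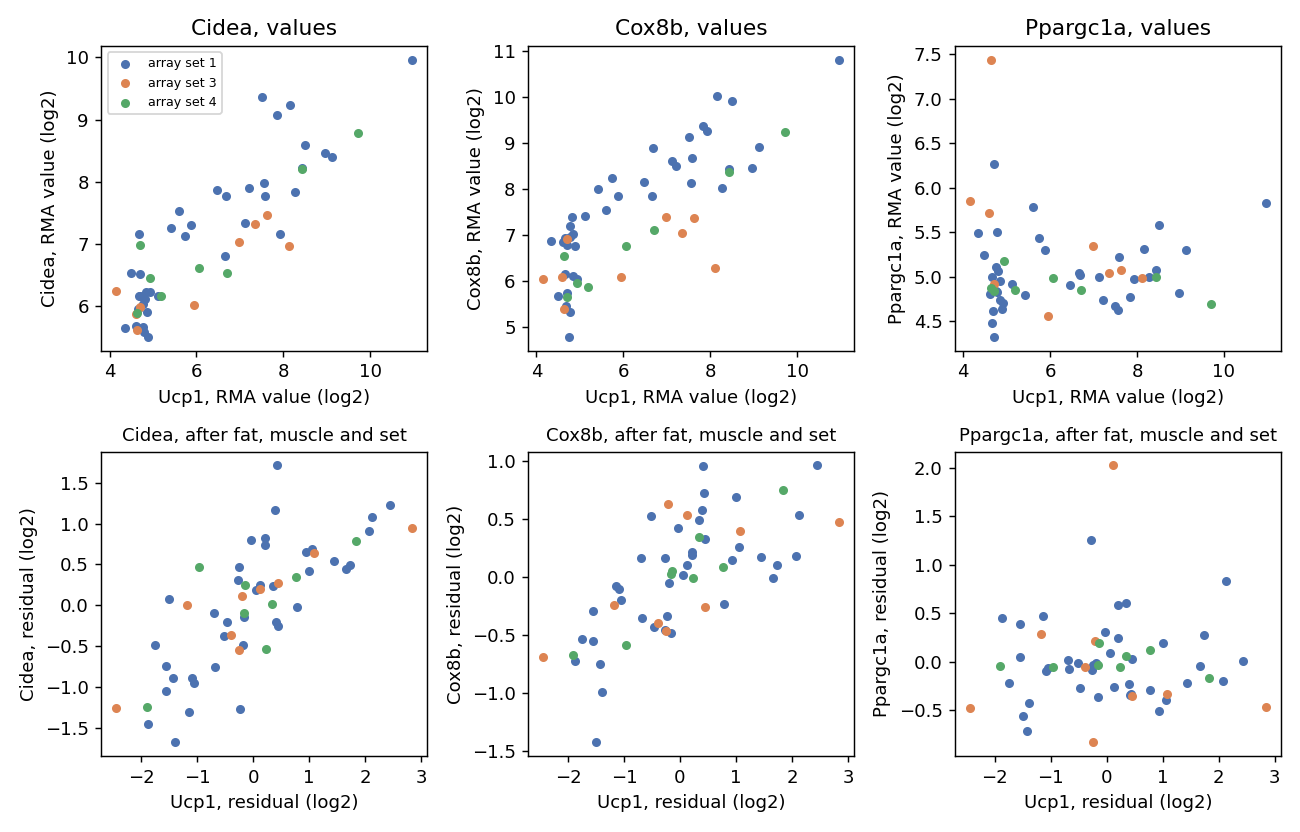
Values of Cidea, Cox8b and Ppargc1a (vertical axes, log2) against Ucp1 (horizontal axes, log2) over the 56 arrays, coloured by array set, in the upper row as deposited and in the lower row as residuals after array set, fat score and muscle score. From left to right the upper r values are 0.87, 0.81 and -0.04 and the lower ones 0.76, 0.70 and 0.02, and the highest Ppargc1a value, 7.44, stands at a Ucp1 of 4.64.

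After removal of the same terms, 10 of the 28 pairs passed. Ucp1 with Cidea had a residual r of 0.76 and rho of 0.77, Ucp1 with Cox8b 0.70 and 0.73, and Cidea with Cox8b 0.64 and 0.67, each at a permutation p of 1e-05 and an adjusted p of 7e-05. Elovl3 kept residual correlations of 0.47 with Ucp1 (permutation p = 0.00023, adjusted p = 0.000805) and 0.41 with Cidea (permutation p = 0.00154, adjusted p = 0.00479), and that with Cox8b, 0.18, did not pass. Before removal, the values of Cox7a1 and Ppargc1a had r of 0.18 over the 56 arrays, which did not pass. In sets 1, 3 and 4 it was 0.47, -0.17 and -0.57, and only that in set 1 passed (adjusted permutation p = 0.0111). Over the 56 arrays their residuals passed, at r of 0.53 and rho of 0.34 (permutation p = 7e-05 and 0.0103, adjusted p = 0.00028 and 0.032). That residual r was 0.38 (adjusted permutation p = 0.0128) without the 2 arrays farthest from the median Cox7a1 residual. Animal 3854, with a Ppargc1a residual of 2.03, was not left out there. Ppargc1a and Dio2 were opposed at -0.38 (permutation p = 0.00292, adjusted p = 0.00818). Here the 2 arrays farthest from the median Ppargc1a residual were those of animals 3854 and 3853. Without these r became -0.23 with an adjusted p of 0.222.

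**Figure D5:**
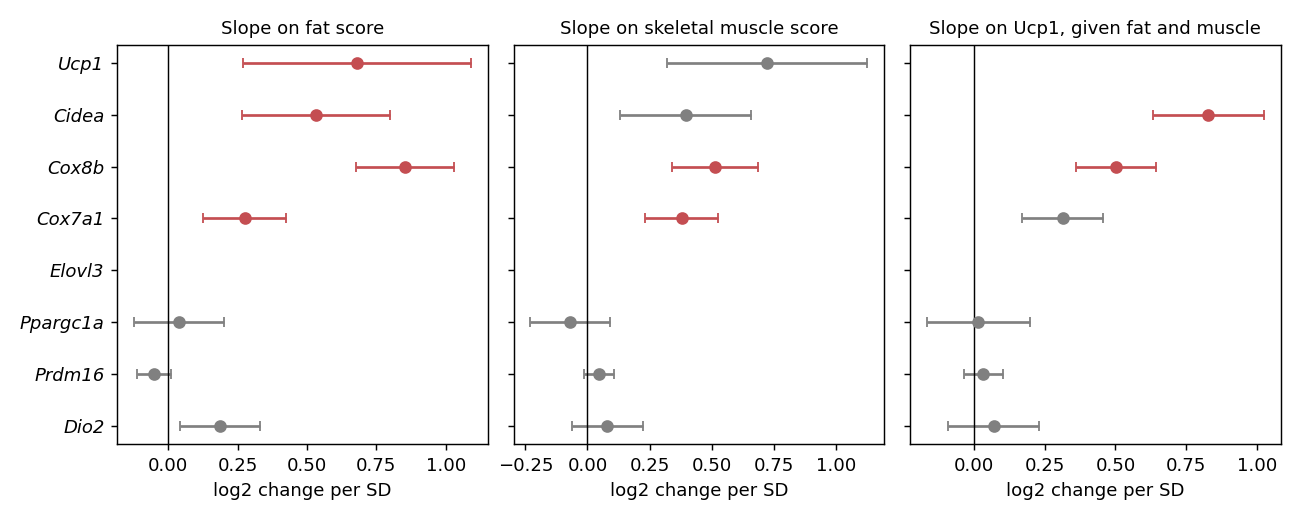
Slopes in log2 units per SD of the fat score, the muscle score and Ucp1 (panels) for the brown fat genes, with bars for 95% intervals and red for an adjusted p under 0.05. Cox8b has slopes of 0.85, 0.51 and 0.50, Cidea has its largest slope, 0.83, on Ucp1, and Elovl3 is blank because it was not tested.

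The other genes called on the Ucp1 slope were Agpat2, Dgat2, Fasn, Gys2, Mrap, Pygl, Slc27a2, Slc36a2 and Tmem45b. None of these 9 was called in array set 1 alone, and without the arrays of animals 3864 and 4958 the 9 were reduced to Agpat2 and Slc36a2. Of 12 alternatives, Agpat2 was called in 11, Slc36a2 in 10, Slc27a2 in 9, Fasn and Pygl in 8, Dgat2 in 6, Tmem45b in 5, and Gys2 and Mrap in 1. Agpat2 and Dgat2 encode enzymes of triglyceride synthesis, Fasn fatty acid synthase, Gys2 and Pygl a synthase and a phosphorylase of glycogen, and Slc27a2 a fatty acid importer that also activates fatty acids. Slc36a2 is an amino acid transporter used as a surface marker of brown adipocytes, and Mrap is an accessory protein of the receptor for adrenocorticotropic hormone. Agpat2 had a slope of 0.24 (limma adjusted p = 0.00071), Slc27a2 0.33 (adjusted p = 0.0181), Slc36a2 0.35 (adjusted p = 0.0248) and Fasn 0.24 (adjusted p = 0.0248). By plain correlation over the 56 arrays, the 15 genes most like Ucp1 outside the 8 were Clic5 (r = 0.77), Agpat2, Slc36a2, Pygl, Cdo1, Dgat2, Gys2, Mrap, Slc27a2, Aspa, Fasn, Ces1d, Synm, Rbp4 and Ckmt2 (r = 0.71). By partial correlation the leading 5 were Agpat2 (0.64), Slc27a2, Fasn, Slc36a2 and Dgat2 (0.55).

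The nearest genes of the other members differed between them. Aspa (r = 0.81), Pygl and Coq8a lay closest to Cidea. Fxyd1 (0.94), Pparg (0.91) and Cdo1 (0.88) lay closest to Cox8b, and Pparg is the master regulator of adipocyte formation. Coq8a (0.89), Pfkm (0.88) and Clic5 (0.88) lay closest to Cox7a1, and Pfkm is the muscle form of phosphofructokinase. Elovl3 was nearest to Atoh8 (0.52), Slc27a2 and Ppp1r3b (0.52). Rnf144a (0.76), Sgcb and Stard13 were nearest to Ppargc1a. Lipg (0.58), Shisa7 and Allc were nearest to Prdm16, and Fibin (0.75), Aplnr and C1qtnf2 were nearest to Dio2. All are correlations across 56 arrays that share a processing, given as a description.

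The wider thermogenic programme was read from lists of genes outside the 8. Of 16 genes of brown adipocyte identity and fuel use, 10 were tested and 2 rose with Ucp1, Slc27a2 and Slc36a2, against 0.0876% of all genes, with a median slope of 0.18 over the 10 against -0.01 over all genes. Neither was called in array set 1 alone, Slc27a2 was not called without the arrays of animals 3864 and 4958, and Slc36a2 was not called with the slow muscle score added. The slow and oxidative muscle list also had a raised median Ucp1 slope, 0.13 over its 8 tested genes. None of those 8 passed in limma, and 2 had an unadjusted p under 0.05. On the fat slope 5 of the 10 rose, against 6.42% of all genes, among them Slc36a2 (0.69, limma adjusted p = 1.50e-09), Otop1 (0.32, adjusted p = 0.0310), which encodes a proton channel, and Fabp3 (0.43, adjusted p = 0.0402), the fatty acid carrier of heart and muscle. Fabp3 was the 1 of the 10 that rose with muscle, against 1.22% of all genes (0.75, limma adjusted p = 0.000113). Zic1, a transcription factor of classical brown fat in mice, lay between 2.06 and 2.56 in every array, below the background limit. Kcnk3, Nrg4 and Lhx8 of the same list were also too dim for the filter. Their r with Ucp1 was 0.70, 0.68 and 0.51, against -0.01 for Zic1, and these values were not tested.

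Of 12 genes of thermogenic control, 8 were tested and none passed on the Ucp1 slope in limma, with 2 at an unadjusted p under 0.05 and a median slope of 0.03. Ebf2, which marks brown and beige precursors, rose with fat (0.39, limma adjusted p = 1.97e-07), and the retinoid receptor gene Rxrg rose with muscle (0.11, adjusted p = 0.0181). Esrrg, a receptor that drives oxidative genes, had a Ucp1 slope of 0.10 and Ppargc1b, the relative of Ppargc1a, one of 0.07, and neither passed. Of 5 beige adipocyte markers, 3 were tested and none passed on any of the 3 slopes in limma, also at an unadjusted p under 0.05. The closest to passing on the Ucp1 slope was Cited1, at 0.12.

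The members were also fitted on 9 scores of other tissues, each beside fat, muscle and array set, and 8 slopes passed, all of Ppargc1a, Cox7a1 or Dio2. Ucp1, Cidea and Cox8b passed on none of them, and Cidea had a slope of -0.09 on the score of milk and secretory epithelium. The hair follicle, slow muscle, endothelial and T cell scores called no member in limma, and 2, 1, 1 and 0 members had an unadjusted p under 0.05 on them. Over all genes, these scores called 9.22%, 0.438%, 7.12% and 1.83% in either direction. On slow and oxidative muscle beyond fast muscle, Ucp1 had a slope of 0.46 ± 0.26 and Cidea 0.39 ± 0.16, and neither passed (limma adjusted p = 0.935 and 0.775). That score correlated with the fast muscle score at 0.78. The sebaceous gland list, for Elovl3, had only 2 genes that could be tested, Scd3 and Krt79, and gave no score.

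Ppargc1a fell as epithelium rose, with a slope of -0.36 ± 0.063 on the luminal and basal epithelium score (SE, limma adjusted p = 0.000186), a direction taken by 7.16% of genes. It also fell on the milk score, at -0.32 (adjusted p = 0.00216, 2.29% of genes), and on the fibroblast score, at -0.28 (adjusted p = 0.0149, 3.76% of genes). Animals 3854 and 3853, with the highest Ppargc1a, had the lowest epithelium scores of the 56. Without them none of the 3 slopes passed, at -0.11, -0.09 and -0.07. Most calls over all genes were lost as well. The epithelium score then called 6 of 12555 genes lower, against 899, the milk score 20, against 288, and the fibroblast score 156, against 472. In array set 1 alone the epithelium and milk slopes of Ppargc1a passed, both at -0.21 (limma adjusted p = 0.00765 and 0.0471). Set 1 still holds animal 3853, with Ppargc1a at 6.27 and an epithelium score of -2.55, so it is not a reading without both animals. The fibroblast slope there did not pass (-0.12, adjusted p = 0.652). Cox7a1 likewise fell with the epithelium score at -0.25 (limma adjusted p = 0.00688). Without animals 3854 and 3853 its slope was -0.12 and did not pass (adjusted p = 0.448). In array set 1 alone, with animal 3853 still in it, the Cox7a1 slope was -0.23 and passed (adjusted p = 0.0140).

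Dio2 rose with the macrophage score at 0.35 ± 0.064 (SE, limma adjusted p = 7.77e-05), as did 7.07% of genes, and with the fibroblast score at 0.32 ± 0.063 (adjusted p = 0.000408), as did 6.39%. Both slopes passed without animals 3854 and 3853, at 0.31 and 0.26 (limma adjusted p = 0.000304 and 0.00389). In array set 1 alone the fibroblast slope was 0.26 and did not pass (limma adjusted p = 0.0821). Its slope on epithelium, 0.26 (limma adjusted p = 0.00437, with 6.48% of genes higher), did not pass without animals 3854 and 3853 (0.21, adjusted p = 0.15). The epithelium score then called only 30 of 12555 genes higher, against 813. In array set 1 alone, which still holds animal 3853, the Dio2 slope on the epithelium score was 0.21 and passed (limma adjusted p = 0.0126). Cox7a1 rose with the score of 12 general respiratory chain genes at 0.25 ± 0.075 (limma adjusted p = 0.0119), as did 16.8% of genes, while Ucp1 had a slope of 0.08 and Cox8b one of 0.11, and neither passed.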

How the data were processed

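Per the labels' protocols, RNA was prepared with Trizol and an RNeasy kit and labelled with biotin (one-cycle kit) for Affymetrix arrays. Per the submitters' processing notes, the authors ran RMA, a method that subtracts background, brings arrays to a common scale and combines the probes of a probe set. Its version, settings, log base and whether the arrays were normalised jointly are not given in the sources used here. The deposited values, from 1.68 to 14.57, were taken as log2. The number of arrays limits the precision, and p-values measure the spread between animals of 1 group.

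The 45101 probe sets include 64 controls. The platform annotation lists 35890, of which 34958 have 1 gene and 932 several, and 9211 are not listed. Of those with 1 gene, 34754 matched the RefSeq gene table (GRCm38.p6), used for names. Testing was limited to the 12562 of 18194 genes whose 95th percentile exceeded the median of all values, 5.42.

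Array sets were found from probe sets that split the arrays exactly (at least 20 probe sets on 10 chromosomes). They comprise 39, 12, 9 and 8 arrays, and the set of 12 is that with 18S above 8. Scores are means of z-scores over the tested genes of a list. Slopes were fitted with limma 3.58.1 in R 4.3.3 (lmFit and eBayes, standardised predictors, array set as a term), leaving a score's own genes out of its counts, with Benjamini-Hochberg adjustment over all genes and a threshold of 0.05. Correlations were tested two-sided with 100000 permutations, or exactly in sets under 10 arrays (Python 3.11.15, scipy 1.17.1). The slope fit was tested on simulated data.

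Genes named besides the 8 are the list genes past the threshold on the Ucp1 slope, the 15 and 5 genes nearest to Ucp1 by r and partial r, the 3 nearest to each other member, Cox8a, Cox7a2 and up to 4 genes of each score list; further genes and single animals were chosen after their values were seen. The members, lists and tests were chosen with earlier results of these data known. The alternatives left out the array set term, used set 1 alone, all 68 arrays, 66 averaged animals, values centred within sets, other probe sets, no filter, a stricter filter, median z-scores, other eBayes settings, Spearman's rho or other detection limits, or left out 2 arrays. Scores added to the Ucp1 fit, the division at the Ucp1 limit and the alternatives of the other tissue scores were added after seeing the data. Protein sequences were not used here.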

Additional observations from a re-analysis of the deposited data

How the results depend on the processing

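Of 378 alternative slopes of the 8 genes, 364 kept their direction and side of the threshold, 8 lost their call and 6 gained one, and of 278 alternative correlations 247 kept both, 20 lost the call, 7 gained one and 4 reversed. A change of sign in a value that passed on neither side is counted as kept. Read from the probe set with the largest SD, which has a mean of 3.02 and lies below the background limit, Prdm16 reversed to r of 0.59 with the fat score, 0.41 with Cidea and 0.49 with Cox7a1. Its r with Ucp1 on that probe set was 0.41, against 0.08 on the one used. In the 24 arrays with Ucp1 at or below the limit, r of Cidea with Ucp1 reversed to -0.029, and the range of Ucp1 there is narrow by construction. The genes called on the Ucp1 slope, 11 in the reported fit, numbered 2 in array set 1 alone, 4 without the 2 arrays highest in Ucp1, 7 with median z-scores, 4 with slow muscle added and 7 with milk genes added; set 1 alone has fewer arrays, and otherwise the cause was not tested. The genes falling with fat numbered 94 in array set 1 alone against 157. Those falling with muscle numbered 9 without the array set term, 9 in set 1 alone and 7 with the probe set of largest SD, against 14, and those rising with muscle 94 under the stricter filter, which tests fewer genes, against 153. The slopes called on other tissues numbered 3 without the 2 arrays highest in Ppargc1a, against 8. With the 95th percentile of Y-linked probe sets, 3.18, as the limit, Ucp1 and Ppargc1a passed in 56 arrays and Elovl3 in 54, so detection of dim genes depends on the background chosen. With the 99th percentile of olfactory receptor probe sets Ppargc1a passed in 14 arrays and Elovl3 in 0. No paired analysis was possible because the labels form 1 group.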

Other observations

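The 12 arrays with high 18S control values enter the comparisons only in the alternatives with all arrays or averaged animals. In these 12 arrays Ucp1 ran from 5.33 through a median of 6.46 to 9.80, with a mean of 6.90 ± 1.47 (SD, n = 12). That mean was not compared with the other arrays because the deposited values of these 12 arrays have a smaller overall spread. Cidea ran there from 4.19 through 6.08 to 8.68, Cox8b from 6.20 through 7.44 to 8.83, and Elovl3 from 3.33 through 3.98 to 5.33. The highest Ucp1 values in these arrays belonged to animal 4963, at 9.80 with Elovl3 at 5.25, and to animal 3351, at 9.15 with Elovl3 at 5.33.

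The animal numbers 3296 and 3351 each have 1 array among the 56 and 1 among the 12, the latter with a title ending in R. For animal 3296 both arrays gave close Ucp1 values, 6.69 and 6.91, and Elovl3 values of 3.32 and 3.33. For animal 3351 Ucp1 was 5.41 on the first and 9.15 on the second, and Elovl3 3.69 and 5.33, while Cidea was 7.25 and 8.05 and Cox8b 7.998 and 8.47. On the second array the 3' minus 5' differences were 0.53 for Gapdh and 1.54 for Actb, the largest of the 68 arrays, against -0.15 and 0.60 on the first. These pairs of values were not tested, and the second arrays belong to the 12 with a smaller overall spread. The sources used here do not say whether both arrays came from 1 tumour piece.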
